A study of Mus musculus with 13 samples.

Results

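The transcription factor genes described here are the SoxF genes Sox7, Sox17 and Sox18, the flow-responsive genes Klf2 and Klf4, the factor Mef2c, the venous factor gene Nr2f2 (which encodes COUP-TFII) and the lymphatic factor gene Prox1. They were taken by gene symbol from the count tables of all 13 libraries. These 8 genes stood among 24984 genes listed for the tumor libraries and 24421 listed for the sprout libraries, and all 8 passed the filter on low counts in both sets. RNA-Seq was made from endothelial cells (ECs) of 2 sources. In the first set, 100 CD31+/CD105+ ECs per library were sorted from E0771 mammary tumors growing in C57BL/6J mice (labelled C57BL6/J). The 3 Apelin-depleted libraries came from Apln-/- hosts bearing E0771 cells with a short hairpin RNA against Apln (shApln), and the 6 Apelin wild-type libraries came from wild-type hosts bearing E0771 cells with a hairpin against Renilla luciferase (shRenilla). Host and tumor cells thus lost Apelin together. In the second set, CD31+ cells were sorted from sprouting embryoid bodies (EBs) grown from female mouse embryonic stem cells of C57BL/6x129 background. A gene trap in Apln lay in the sense orientation, which stops the gene (Apln STOP, 2 libraries), or in the antisense orientation, which lets it read through (Apln GO, 2 libraries). All EBs were moved to collagen gel on day 8 with 30 ng/mL VEGFA164, and Apelin (1000 nM) or DMSO was added after sprouting began. The study describes GO cultures with Apelin against STOP cultures with DMSO. GO cells were made in the study by infecting STOP cells with a retrovirus that carries Cre and mCherry. Genotype, this infection and added peptide then cannot be told apart. Nothing in the labels says that libraries of a group came from separate mice or cultures. For the tumor set the study's legend gives n = 6 for shRenilla and n = 3 for shApln, equal to the numbers of libraries. The labels do not tie each library to a tumor, so p-values measure the spread between these libraries, which may be technical.

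SoxF proteins bind DNA through an HMG box and act redundantly in building vessels: Sox17 is known for arterial identity, and Sox18 and Sox7 for vessel and early lymphatic development. Klf2 and Klf4 are zinc-finger factors that shear stress induces in ECs through the Mekk3, Mek5 and Erk5 kinases and Mef2 factors, and they switch on anti-thrombotic and vasodilator genes such as Thbd and Nos3. COUP-TFII holds back the arterial program in veins, and together with Sox18 it turns on Prox1, the factor that makes an EC lymphatic. Klf2 and Klf4 are also active in pluripotent stem cells, which carry CD31 themselves.

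Total counts ran from 4661044 to 14455093 in tumor libraries and from 12327030 to 16804071 in sprout libraries. Apln was at 12.1, 8.51 and 2.44 counts per 1000000 counts (CPM) in the depleted tumor libraries, whereas all 6 wild-type libraries lay between 416 and 1033 CPM, as their labels say. In sprout libraries Apln was at 66.1 and 80.2 CPM under the STOP label and at 58.2 and 65.9 CPM under the GO label (log2 fold change 0.24 ± 0.16, SE; edgeR adjusted p = 0.367). A count over the whole gene does not tell exons upstream of the trap from those downstream, so it does not check these labels. Within these libraries every sprout direction given here rests on the labels alone. Apart from them, the study reported that STOP EBs sprouted later than GO EBs under VEGF. The sums of endothelial markers given below are lower under the STOP label. They are part of what is compared, so they do not check the labels either. The 15 endothelial markers summed to between 9890 and 16158 CPM in tumor libraries, where 12 pluripotency markers together reached at most 11.5 CPM. In sprout libraries the same endothelial markers summed to 677 and 937 CPM (STOP) and to 2729 and 2642 CPM (GO), and the pluripotency markers, Pou5f1 and Nanog among them, to 6439 and 6167 CPM (STOP) and to 2490 and 4102 CPM (GO). The sorted sprout cells therefore carried a stem cell signal beside the endothelial one in all 4 libraries. Below, sprout ECs is the name for these sorted cells as a whole.

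In the RefSeq annotation of GRCm38.p6 the SoxF genes lie apart, Sox7 at chr14:63943706-63950732, Sox17 at chr1:4490928-4497426 and Sox18 at chr2:181669837-181671640. Klf2 lies at chr8:72319062-72321654, Klf4 at chr4:55527137-55532475, Mef2c at chr13:83504017-83667079, Nr2f2 at chr7:70351946-70366746 and Prox1 at chr1:190118035-190170827. Promoter sequences are shown for the flow-responsive members Klf2 and Klf4 and for the venous and lymphatic members Nr2f2 and Prox1. Each is the stretch of 250 bases before a transcription start in RefSeq (GRCm38.p6), written 5′ to 3′ on the gene's strand, with matches to a MEF2 consensus, a GC box (GGGCGG) or a CACCC box (CACCC) on either strand in capitals. The Klf2 window is chr8:72318812-72319061 (+), with Klf4 at chr4:55532476-55532725 (-), Nr2f2 at chr7:70366747-70366996 (-) and the distal of both listed Prox1 starts at chr1:190170828-190171077 (-).
Klf2: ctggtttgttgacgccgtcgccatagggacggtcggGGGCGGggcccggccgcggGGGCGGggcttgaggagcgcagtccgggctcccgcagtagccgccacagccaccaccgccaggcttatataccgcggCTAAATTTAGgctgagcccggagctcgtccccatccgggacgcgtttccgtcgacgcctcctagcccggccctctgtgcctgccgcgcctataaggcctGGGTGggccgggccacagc
Klf4: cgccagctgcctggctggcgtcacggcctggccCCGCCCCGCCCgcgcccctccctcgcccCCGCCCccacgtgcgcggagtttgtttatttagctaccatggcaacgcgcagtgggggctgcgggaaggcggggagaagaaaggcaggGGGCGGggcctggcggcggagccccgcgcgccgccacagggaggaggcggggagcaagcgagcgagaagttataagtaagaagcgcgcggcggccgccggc
Nr2f2: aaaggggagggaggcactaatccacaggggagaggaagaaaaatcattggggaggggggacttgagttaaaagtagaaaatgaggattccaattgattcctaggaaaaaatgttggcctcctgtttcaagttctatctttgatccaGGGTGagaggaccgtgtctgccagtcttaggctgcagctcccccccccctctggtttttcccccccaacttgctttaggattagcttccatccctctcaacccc
Prox1: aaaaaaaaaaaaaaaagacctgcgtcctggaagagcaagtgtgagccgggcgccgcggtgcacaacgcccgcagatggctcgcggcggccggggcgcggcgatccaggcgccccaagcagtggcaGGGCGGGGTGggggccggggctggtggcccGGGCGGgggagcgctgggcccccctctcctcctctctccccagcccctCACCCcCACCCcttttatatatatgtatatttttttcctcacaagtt
The Klf2 promoter held a MEF2 consensus match from 118 to 109 bases before its start (CTAAATTTAG), 2 GC boxes and 1 CACCC box. Of 32851 promoter windows of this length in the table, 2.92% held a MEF2 consensus, 32.7% a GC box and 52.0% a CACCC box. The Klf4 window held 4 GC boxes, of which 2 share a base, and neither of the other motifs. Prox1 held 2 GC boxes and 3 CACCC boxes, with a GC box and a CACCC box sharing a base, while Nr2f2 held 1 CACCC box. Promoter windows were listed for 5 of the 8 members (8 windows, with 3 starts for Mef2c and 2 for Prox1). A SOX core (AACAAT, in 9.42% of all windows) and an ETS core (CCGGAA, in 12.0%) were in 0 of these 8 windows, which says only that these letters were not there.

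Levels per transcript length came first, to show which factors the sorted cells carried. They were gene counts divided by length and scaled to the same total for the tumor libraries, and deposited TPM for the sprout libraries. In Apelin wild-type tumor ECs the order of mean levels was Sox18 (406 ± 267, SD, n = 6), Klf2 (355 ± 114), Sox7 (146 ± 56.7), Sox17 (99.4 ± 38.4), Klf4 (74.4 ± 27.2), Mef2c (52.5 ± 12.7), Nr2f2 (33.2 ± 28.5) and Prox1 (7.57 ± 14.3). Library ranges overlapped between all neighbours in this order apart from Klf2 and Sox7. Apelin-depleted tumor ECs held Klf2 (634 ± 528, n = 3) above Sox18 (453 ± 422), with overlapping ranges between every pair of neighbours, and Prox1 was again the lowest (33.0 ± 45.3). Sox18 and Klf2 thus had the highest mean levels in both groups, but not in every library. In wild-type library 5 Sox18 was at 3.26, the lowest of the 8 members. Sox7 (227) was above Sox18 (188) in depleted library 1, and Sox7 (202) was above Klf2 (181) in depleted library 3.

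In sprout ECs the order was taken from the TPM table alone. Because of the stem cell signal in these libraries, the levels are those of the sorted mixture and not of ECs alone. Klf2 led in GO libraries at 186 ± 37.5 TPM (SD, n = 2), followed by Klf4 at 58.3 ± 34.7 TPM, Sox18 at 52.6 ± 15.6 TPM and Sox7 at 46.4 ± 7.53 TPM, with overlapping ranges from Klf4 to Sox18 and from Sox18 to Sox7. Sox17 (22.5 ± 2.35 TPM), Nr2f2 (18.3 ± 13.6 TPM), Mef2c (7.57 ± 1.10 TPM) and Prox1 (1.61 ± 0.21 TPM) followed, with Sox17 and Nr2f2 overlapping. In STOP libraries Klf2 stood alone at 249 ± 15.3 TPM, Klf4 came next at 36.2 ± 10.3 TPM, and no SoxF gene had a mean above 13.3 TPM. Levels in tumor and sprout libraries came from separate tables and were not compared with each other.

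**Figure D1:**
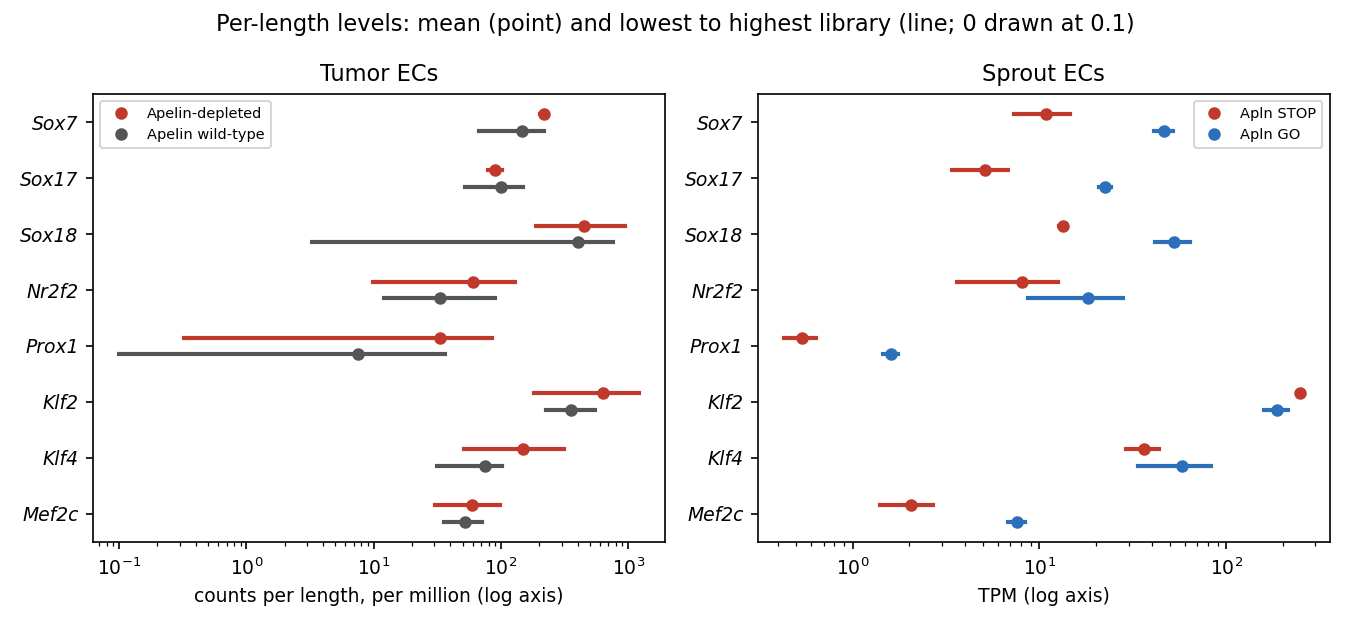
Level of each member per transcript length on a log axis, as counts per length scaled to a common total in tumor ECs (left) and as TPM in sprout ECs (right). Points are group means and lines run from the lowest to the highest library. SoxF and Mef2c levels in the 2 STOP libraries lie below those in the 2 GO libraries, whereas the tumor groups overlap for all 8 genes.

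The first comparison asked whether ECs of Apelin-depleted tumors carried other levels of these factors than ECs of Apelin wild-type tumors. None of the 8 members passed the test (edgeR quasi-likelihood, adjusted p below 0.05 and more than a 2-fold change): 0 decreased, where 0.00765% of the 13073 tested genes did (Apln itself), and 0 increased, where 0.00% did. Over all genes, 384 (2.94%) were lower and 245 (1.87%) higher at an unadjusted p below 0.05, DESeq2 called 97 lower and 19 higher, and limma voom called 1 in each direction. DESeq2 and limma voom also called 0 members. The libraries of the 2 groups overlapped for every member, so 0 were separated, against 1.27% of genes separated as lower and 1.06% as higher in depleted libraries. The members' median log2 fold change was 0.72, beside -0.028 over all tested genes, and 7 of 8 were above 0. Without depleted library 2 their median was -0.048 and 2 of 8 were above 0.

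Sox7 was the steadiest SoxF gene in depleted ECs, at 364, 366 and 360 CPM. In wild-type ECs it ranged from 124 to 368 CPM with a median of 215 CPM. The wild-type range reached past all 3 depleted values, and the log2 fold change was 0.61 ± 0.32 (SE, 95% interval -0.070 to 1.28). Sox17, the arterial SoxF gene, was at 133, 175 and 168 CPM in depleted ECs and from 99.4 to 246 CPM (median 169) in wild-type ECs. Its depleted values lay inside the wild-type range, with a log2 fold change of -0.087 ± 0.32. Sox18 varied most among the SoxF genes, at 150, 761 and 204 CPM in depleted ECs and from 2.95 to 633 CPM (median 325) in wild-type ECs. The lowest value was wild-type library 5, with 17 counts of Sox18 beside 712 of Sox7 and 572 of Sox17. The interval of its log2 fold change ran from -2.41 to 2.76, wide in both directions. Sox18 turned lower in depleted ECs, by 0.90 on the log2 scale, without depleted library 2.

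Klf2 was at 453, 1103 and 180 CPM in depleted ECs and from 182 to 467 CPM (median 329) in wild-type ECs. Klf4 was at 131, 476 and 84.6 CPM in depleted ECs and from 53.7 to 144 CPM (median 121) in wild-type ECs. For both genes depleted library 2 stood above every other library, and the remaining depleted values lay within the wild-type range, apart from Klf2 in library 3, which was just below it. The log2 fold changes were 0.84 ± 0.42 for Klf2 and 1.05 ± 0.45 for Klf4 (interval 0.093 to 2.00, unadjusted p = 0.0335, edgeR adjusted p = 1.00). Without depleted library 2 they were -0.039 and -0.056. The same library had the highest summed level of 12 immediate-early genes, the fast response genes that include Fos and Egr1: 17122 CPM, against 6504 to 10286 CPM in the other 8 libraries. The part of these genes in the Klf values was not tested. Mef2c, a target and partner of the Erk5 pathway, had the opposite order among depleted libraries, at 160, 98.0 and 342 CPM, and ranged from 129 to 252 CPM (median 154) in wild-type ECs. Of its depleted values 1 lay below, 1 inside and 1 above the wild-type range, with a log2 fold change of 0.23 ± 0.36.

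**Figure D2:**
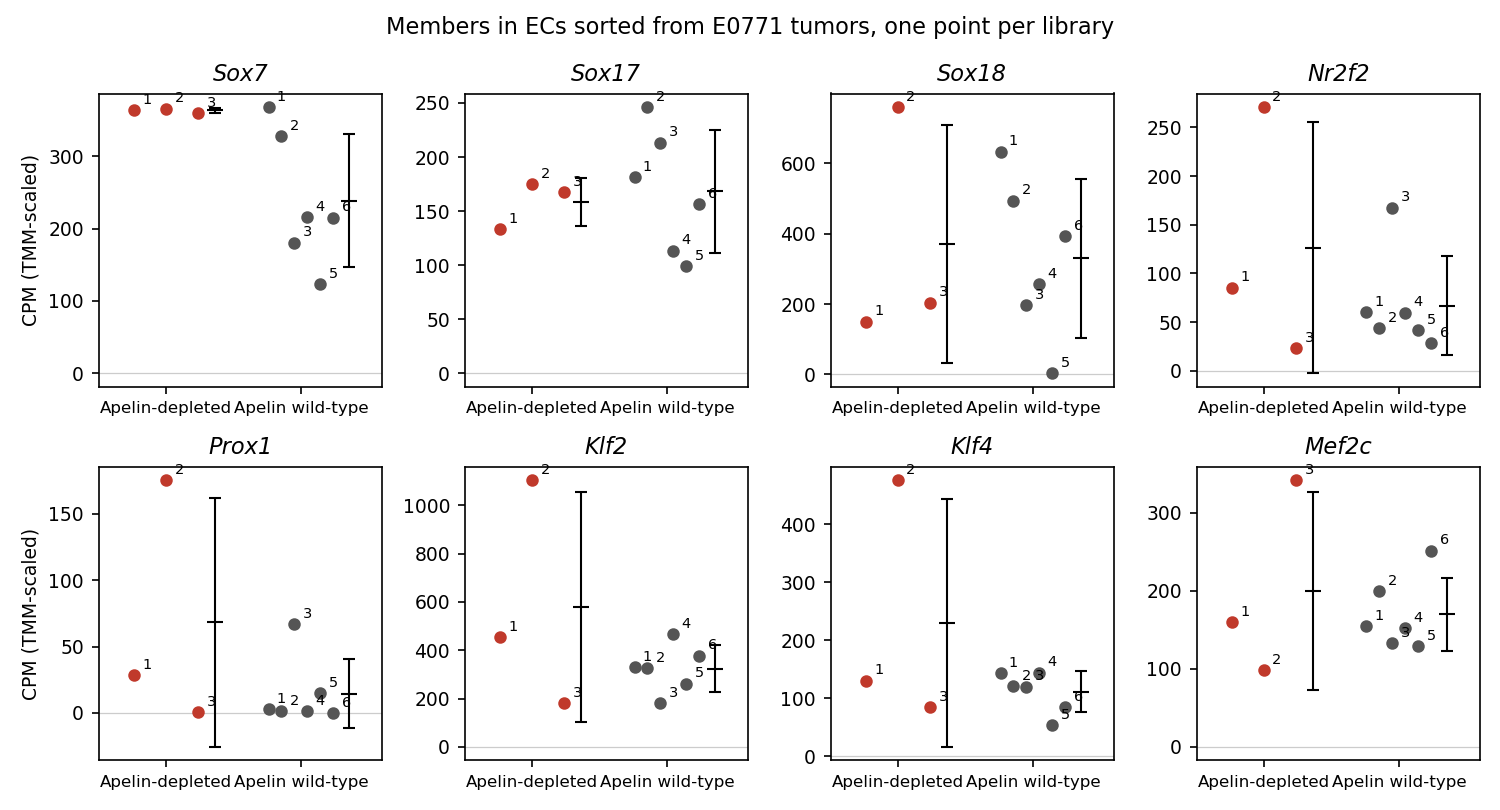
CPM of each member in the 3 Apelin-depleted (red) and 6 Apelin wild-type (grey) tumor EC libraries on linear axes. Points carry replicate numbers, and the bar beside each group is its mean and SD. Depleted library 2 is the highest library for Sox18, Nr2f2, Prox1, Klf2 and Klf4, and the groups overlap in every panel.

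Nr2f2 and Prox1 split the tumor libraries across the genotypes. Nr2f2 was at 85.3, 271 and 22.9 CPM in depleted ECs and from 28.1 to 168 CPM (median 51.9) in wild-type ECs, and wild-type library 3 held its top wild-type value. Prox1 was at 28.5, 175 and 0.73 CPM in depleted ECs. In wild-type ECs it ran from 0 to 66.7 CPM with a median of 2.06 CPM, again with library 3 on top and with library 5 at 15.1 CPM. In wild-type library 6 a count of 0 was found for Prox1, which allows up to 0.42 CPM from counting error alone. The log2 fold changes were 0.92 ± 0.65 for Nr2f2 and 2.22 ± 1.82 for Prox1, and without depleted library 2 they were -0.32 and -0.015.

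Lymphatic fate genes did not share 1 pattern over the tumor libraries. The genes with the highest Pearson r to Prox1 over the 9 tumor libraries, on log2(CPM + 1) values, were Pard6g (r = 0.99) and Mmrn1 (r = 0.95), picked as maxima among 13072 genes. Mmrn1, which encodes a multimerin of lymphatic vessels, was at 140, 703 and 7.68 CPM in depleted libraries 1, 2 and 3. It was at 456 CPM in wild-type library 3 and at no more than 28.5 CPM in the other 5 wild-type libraries. Lyve1, the hyaluronan receptor of lymphatic vessels, was at 632, 1081 and 93.6 CPM in depleted ECs and at 1712 CPM in wild-type library 3, against at most 90.1 CPM in the remaining wild-type libraries. Reln was at 15.8, 96.5 and 1.34 CPM in depleted ECs and at 69.9 CPM in wild-type library 3, with at most 4.34 CPM in the other 5. Mmrn1, Lyve1 and Reln are shown because of their values and are no test of a relation to Prox1. Of 10 lymphatic fate genes tested, 4 (these 3 and Flt4) had their 3 highest values in the same libraries as Prox1, depleted libraries 1 and 2 and wild-type library 3, and 6 did not. Pdpn was at 122 CPM in wild-type library 2 against 66.8 CPM in depleted library 1. Foxc2 was at 0.79 CPM in wild-type library 3 against 21.2 CPM in wild-type library 1, and Fgfr3 was highest in wild-type library 4, at 20.8 CPM. All 11 lymphatic fate genes without Prox1 summed to 1340, 2962 and 439 CPM in depleted ECs and to between 199 and 2952 CPM in wild-type ECs. The 10 tested had 0 calls and a median of 1.15 on the log2 scale, and Ccl21a had a count of 0 in every library. In bulk samples, fewer cells of a type and less RNA per cell cannot be told apart, so these values do not say how many lymphatic ECs were sorted.

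Of 28 pairs of members, Nr2f2 and Prox1 were the 1 pair whose Pearson r over the 9 tumor libraries passed the adjustment (r = 0.89, exact permutation test, two-sided, p = 0.00101, adjusted over the pairs 0.0282). Spearman's rho was 0.88 (exact permutation p = 0.00308, adjusted 0.0861). Within the 6 wild-type libraries r was 0.80 (exact p = 0.0528), and without depleted library 2 and wild-type library 3 it was 0.66 (exact p = 0.113), so the relation rests in part on those libraries. Mef2c ran against both: its r was -0.83 with Nr2f2 (exact permutation p = 0.00597, adjusted 0.0808) and -0.79 with Prox1 (exact p = 0.00887, adjusted 0.0808). Within wild-type libraries the corresponding r values were -0.65 and -0.80. Among the SoxF genes r was 0.74 for Sox7 and Sox18 (exact permutation p = 0.0244, adjusted 0.114; rho = 0.62), 0.67 for Sox17 and Sox18 and 0.48 for Sox7 and Sox17. Without wild-type libraries 4 and 5 it was 0.35 for Sox17 and Sox18. For Sox7 and Sox18 it was 0.85 within the 6 wild-type libraries (exact p = 0.00278, not adjusted over the pairs; rho = 0.94) and 0.11 without wild-type libraries 3 and 5, so this relation rests on those libraries. Klf2 and Klf4 had r = 0.79 (exact permutation p = 0.0190, adjusted 0.106; rho = 0.80), which was 0.33 without depleted libraries 2 and 3. Nr2f2 and Klf4 had r = 0.78 (exact permutation p = 0.0115, adjusted 0.0808; rho = 0.72), which was 0.60 without depleted library 2 and wild-type library 3 and 0.42 within wild-type libraries. For Prox1 and Klf2 r was 0.36 over the 9 libraries but -0.91 within wild-type ones (exact permutation p = 0.0139, not adjusted over the pairs).

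**Figure D3:**
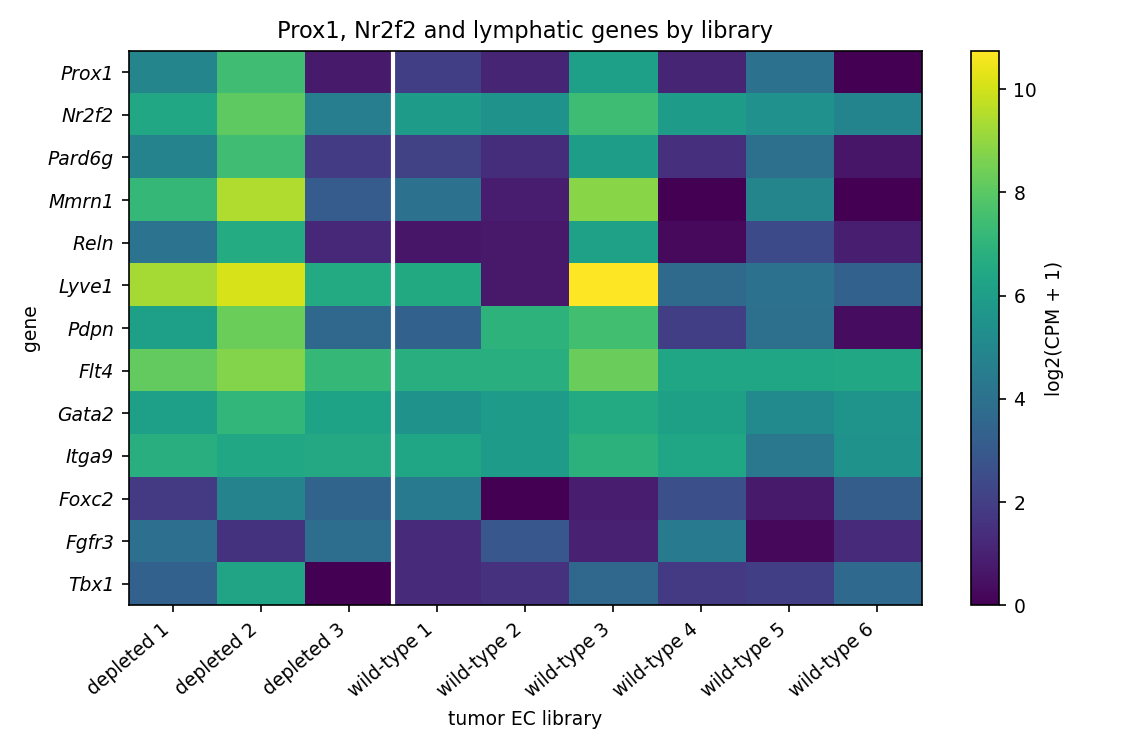
Heat map of log2(CPM + 1) for Prox1, Nr2f2, Pard6g and lymphatic fate genes (rows) in the 9 tumor EC libraries (columns), with a white line between genotypes. Depleted libraries 1 and 2 and wild-type library 3 are bright for Prox1, Mmrn1, Reln and Lyve1, while Foxc2, Fgfr3, Pdpn and Tbx1 follow other orders.

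The genes nearest in pattern to the other members over the same 9 libraries were likewise maxima among 13072 genes and are given as a description. For Sox7 they were Pcdhb22 (r = 0.95) and Pdia5 (r = 0.95), for Sox17 Man2b2 (r = 0.93) and Vangl2 (r = 0.91), and for Sox18 Smpd1 (r = 0.98) and Gtf2h3 (r = 0.97). For Nr2f2 they were Zfas1 (r = 0.97) and Map3k12 (r = 0.96), for Klf2 Zfp78 (r = 0.94) and Acot11 (r = 0.92), for Klf4 Pxn (r = 0.95) and Tle3 (r = 0.94), and for Mef2c Map3k21 (r = 0.91) and Slc46a3 (r = 0.91). No member was among the nearest genes of another member.

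Genes around these factors did not pass the test in tumor ECs either. Over all 13073 tested genes 0.00765% were decreased and 0.00% increased, so 0 calls in a list is near that share. In simulated tumor data edgeR recovered 33.0% of the genes changed by 2 on the log2 scale. A list with 0 calls is therefore not shown to be unchanged. The 9 tested genes linked to SoxF in ECs (among them Cldn5, Robo4, Dll4 and Cdh5) had 0 calls, 8 of 9 were above 0 and their median was 0.40 on the log2 scale. Of 14 flow-responsive genes downstream of Klf factors, 0 were called and the median was 0.19. The 9 genes of the Mekk3, Erk5 and cavernous malformation pathway upstream of Klf2 and Klf4 had 0 calls and a median of 0.055. Arterial fate genes (14 tested) and venous fate genes (10 tested) had 0 calls each and medians of 0.40 and 0.51. Other Sox genes (6 tested), other Klf genes (10 tested) and other Mef2, Nr2f and Prox genes (5 tested) had 0 calls as well, with medians of 0.41, 0.080 and 0.38. The 15 endothelial markers had 0 calls and a median of 0.29. Leukocyte markers summed to 796 CPM in depleted library 1 and 613 CPM in wild-type library 4 and to at most 92.0 CPM elsewhere, and mural and mesenchymal markers to 5290 CPM in wild-type library 2 and to at most 313 CPM elsewhere. Their part in the members' values was not tested.

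The second comparison asked how the same factors differed between sprout ECs under the STOP and GO labels. Of the 8 members 3 were decreased in STOP libraries, namely Sox17, Sox18 and Mef2c, where 3.03% of 14557 tested genes were, and 0 were increased, where 0.852% were. DESeq2 called Sox7 as well, and at an unadjusted p below 0.05 edgeR had 5 members lower and 1 higher, where 14.3% and 12.4% of all tested genes were lower and higher. The 1 higher member is close to the share over all genes. For 5 members both STOP libraries lay below both GO libraries and for 1 (Klf2) above them, which 29.6% and 31.0% of all tested genes did. With 2 libraries a group such separation is common, and it carries little on its own. The members' median log2 fold change was -1.53, beside 0.0052 over all tested genes.

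Sox17 was at 8.94 and 16.9 CPM in STOP libraries and at 51.9 and 49.6 CPM in GO libraries. This was a 3.94-fold decrease (log2 fold change -1.98 ± 0.30, edgeR adjusted p = 0.0196), lower in 2 of 2 STOP libraries. Sox18 was at 14.7 and 16.0 CPM in STOP libraries and at 62.7 and 45.0 CPM in GO libraries. It had the lowest adjusted p of the members (3.50-fold lower, log2 fold change -1.81 ± 0.21, adjusted p = 0.00572), and it was the 1 member called whichever library was left out (-2.02 to -1.55, adjusted p between 0.00693 and 0.0449). Such fits set 1 library against 2, so the spread comes from the group with 2 and the lone library is assumed to vary like it, and these p-values are no separate evidence. Sox7 was at 15.6 and 33.1 CPM in STOP libraries and at 102 and 90.0 CPM in GO libraries. Its log2 fold change of -1.99 ± 0.38 was as large as that of Sox17 but missed the threshold in edgeR (adjusted p = 0.0586), and DESeq2 gave 9.12e-08. Over all alternatives the adjusted p of Sox7 ran from 9.12e-08 to 0.627. Mef2c was at 6.64 and 13.4 CPM in STOP libraries and at 32.9 and 30.1 CPM in GO libraries (3.17-fold lower, log2 fold change -1.66 ± 0.33, adjusted p = 0.0361). Without GO library 1 the adjusted p was 0.106 for Sox17 and 0.169 for Mef2c, and 1 member was called, where 0.914% of genes tested in that fit were decreased. Mef2c also missed the threshold without STOP library 1 (0.0882) and without GO library 2 (0.0640).

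Prox1 was low throughout, at 1.90 and 1.30 CPM in STOP libraries and at 4.42 and 4.04 CPM in GO libraries, which is 28, 16, 75 and 50 counts. Its log2 fold change was -1.39 ± 0.41 (edgeR adjusted p = 0.0865). Nr2f2 did not follow the labels, at 11.2 and 39.8 CPM in STOP libraries and at 72.7 and 25.8 CPM in GO libraries. Its log2 fold change was -0.96 ± 0.98 (adjusted p = 0.608, 95% interval -4.21 to 2.29), so the direction was not settled at this number of libraries. The 12 mural and mesenchymal markers, Col1a1 among them, split the libraries the same way, with sums of 443 and 2367 CPM in STOP libraries 1 and 2 and of 2686 and 599 CPM in GO libraries 1 and 2. Their part in the Nr2f2 values was not tested.

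Klf2 went the other way from the SoxF genes. It was at 337 and 315 CPM in STOP libraries and at 178 and 264 CPM in GO libraries, with a log2 fold change of 0.56 ± 0.20 that did not pass (edgeR adjusted p = 0.127). Klf4 was at 78.2 and 52.5 CPM in STOP libraries and at 122 and 53.3 CPM in GO libraries (log2 fold change -0.42 ± 0.50, adjusted p = 0.646). Its top value was GO library 1, where immediate-early genes summed to 5362 CPM, against 1628 to 2206 CPM in the other 3 libraries, and without that library the log2 fold change of Klf4 was 0.29. The part of these genes in the Klf4 values was not tested. Klf4 was also the member whose value hung most on read assignment, since the RSEM expected counts, which share out reads with more than one match, came to between 120% and 130% of its unique-read counts. For the other 7 members this share lay between 93.1% and 108%. The log2 fold change of Klf4 from the rounded expected counts was -0.53 (adjusted p = 0.564, range over the alternatives 3.71e-06 to 0.912).

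**Figure D4:**
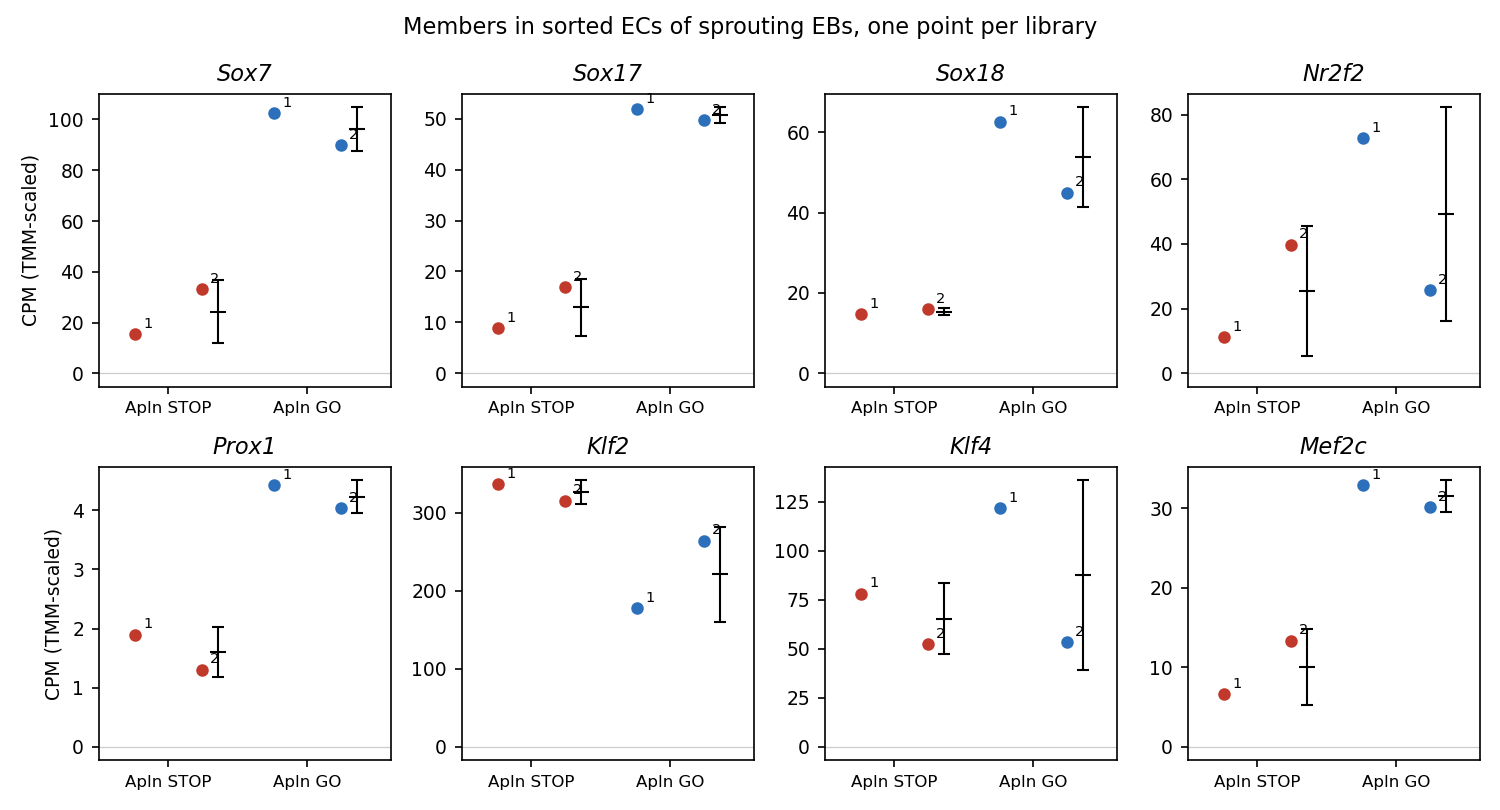
CPM of each member in the 2 Apln STOP (red) and 2 Apln GO (blue) sprout EC libraries on linear axes, with replicate numbers and, beside each group, the mean and SD. Sox7, Sox17, Sox18, Prox1 and Mef2c are lower in both STOP libraries, Klf2 is higher in both, and Nr2f2 and Klf4 overlap.

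The log2 fold changes of the endothelial markers were about as large as those of the SoxF genes. Of the 15 markers 14 were decreased (median -1.98 on the log2 scale), and Tie1 (-2.26 ± 0.17), Fli1 (-2.03 ± 0.16) and Erg (-2.35 ± 0.19) had the lowest p (edgeR adjusted p = 0.00242 for each). Their geometric mean was 30.8 ± 6.53 CPM in STOP libraries and 113 ± 0.42 CPM in GO libraries (SD, n = 2). Divided by this geometric mean, Sox17 was at 0.341 and 0.478 in STOP libraries and at 0.459 and 0.441 in GO libraries. The ratio for Sox18 was 0.561 and 0.453 against 0.554 and 0.400, for Sox7 0.594 and 0.933 against 0.906 and 0.800, and for Mef2c 0.253 and 0.377 against 0.291 and 0.268. STOP and GO ratios overlapped for these 4 genes. For Klf2 the ratio was 12.9 and 8.90 in STOP libraries against 1.57 and 2.35 in GO libraries, and for Klf4 2.98 and 1.48 against 1.08 and 0.474, with both STOP libraries above both GO libraries. This geometric mean was itself lower in STOP libraries, which raises any ratio to it there. Scaled to these markers, 88.2% of all tested genes counted as increased, so this separation carries little on its own. Against the pluripotency markers Klf2 varied less. Divided by their geometric mean it was at 0.807 and 0.807 in STOP libraries and at 1.06 and 0.951 in GO libraries. Both STOP libraries thus lay below both GO libraries for Klf2. Klf4 over the same markers was at 0.187 and 0.134 in STOP libraries and at 0.726 and 0.192 in GO libraries, with both STOP libraries below both GO libraries. The geometric mean of the pluripotency markers was itself higher in STOP libraries (404 ± 19.1 against 223 ± 78.1 CPM), which lowers any ratio to it there. All 12 pluripotency markers had log2 fold changes above 0 (median 0.90), and 2 of them were increased, Dppa5a (1.28 ± 0.22, edgeR adjusted p = 0.0227) and Fgf4 (1.02 ± 0.22, adjusted p = 0.0475). The part of the stem cell signal in the members' values was not tested.

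Scaling the libraries to the 15 endothelial markers in place of all genes moved the median of all tested genes to 1.91 in sprout ECs, and 88.2% of the tested genes (12844 of 14557) then counted as increased. On this scale Sox7 was at -0.16, Sox17 at -0.13, Sox18 at 0.085 and Mef2c at 0.17, 0 members were decreased, and Klf2 (2.47) and Klf4 (1.52) were increased, the former above and the latter below the median of all genes. Nr2f2 was at 0.83 and Prox1 at 0.53. The sign of Sox18, Mef2c, Nr2f2, Prox1 and Klf4 in sprout ECs flips on this scale, but the shift is common to all genes, and these 5 members were below the median of all genes on both scales. In tumor ECs the scaling moved the median of all genes from -0.028 to -0.30. Sox18 and Mef2c were then at -0.061 and -0.11, above that median as before.

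**Figure D5:**
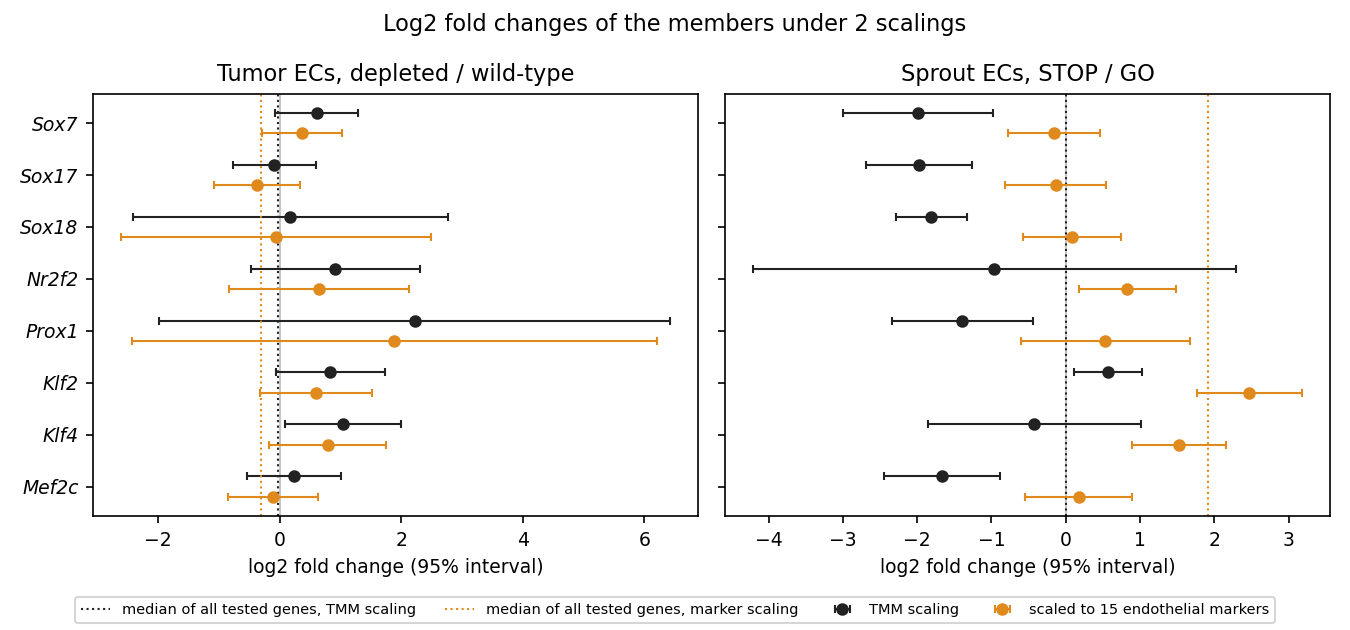
Log2 fold change of each member with its 95% interval in tumor ECs (left, depleted over wild-type) and sprout ECs (right, STOP over GO), under TMM scaling (black) and scaling to 15 endothelial markers (orange). Dotted lines mark the median of all tested genes under each scaling, which moves to 1.91 for sprout ECs. Sox7, Sox17, Sox18 and Mef2c sit near 0 once scaled to endothelial markers.

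Most tested genes linked to SoxF were decreased in STOP libraries, as were Sox17 and Sox18, while Sox7 missed the threshold. Of 9 tested, 7 were decreased and 0 increased (median -1.85 on the log2 scale). Kdr, the main VEGF receptor, fell by 1.95 ± 0.20 on the log2 scale (edgeR adjusted p = 0.00437), Egfl7 by 1.87 ± 0.23 (0.0102) and the junction cadherin gene Cdh5 by 1.98 ± 0.27 (0.0173). Kdr, Cdh5, Egfl7, Cldn5 and Robo4 also stand in the endothelial marker list, so 5 of the 7 decreased genes were already counted among the markers. Arterial, venous and lymphatic genes were all among the decreased ones. In STOP libraries 7 of 14 arterial fate genes were decreased (median -1.56), led by the Notch target Hey1 (-1.79 ± 0.16, adjusted p = 0.00281), and 5 of 9 venous fate genes were decreased (median -1.87), led by Flt4 (-1.71 ± 0.14, adjusted p = 0.00242). Of 9 lymphatic fate genes 2 were decreased (median -0.92), Flt4 and the valve factor gene Foxc2 (-2.31 ± 0.26, adjusted p = 0.00572). None of these 3 lists had an increased gene, which says little where 0.852% of all tested genes were increased. For the decreased counts the share over all tested genes was 3.03%. The lists overlap: Flt4 stands in the venous and the lymphatic list, and the decreased venous genes Tek and Emcn are also endothelial markers.

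Among genes downstream and upstream of the Klf factors, few passed the test. Of 13 flow-responsive genes 2 were decreased and 0 increased (median -1.31), both with endothelial roles: Nos3, the endothelial nitric oxide synthase (-1.80 ± 0.16, edgeR adjusted p = 0.00263), and S1pr1, a sphingosine-1-phosphate receptor (-2.05 ± 0.25, adjusted p = 0.0117). These known targets of Klf2 were lower in libraries in which Klf2 itself had a log2 fold change of 0.56. That change did not pass (edgeR adjusted p = 0.127). In a mixed sort the values need not come from the same cells, and a relation between them was not tested. Of the 9 genes of the Mekk3, Erk5 and cavernous malformation pathway 1 was decreased, Rasip1, a Rap1 effector of ECs (-1.72 ± 0.14, adjusted p = 0.00242), and the median was -0.38. Among relatives of the members, Sox4 (-1.32 ± 0.26, adjusted p = 0.0455) was the 1 decreased gene of 15 other Sox genes, Mef2a (-1.18 ± 0.18, adjusted p = 0.0131) the 1 of 4 other Mef2, Nr2f and Prox genes, and 0 of 13 other Klf genes were called. Their medians were -0.081, -0.86 and -0.042. Percentages of all genes decreased and increased (3.03% and 0.852%) are the background for these counts. Markers of further cell types also moved: 3 of 11 endoderm markers, 1 of 10 heart muscle markers and 1 of 4 erythroid markers were decreased, 1 of 9 neural markers was increased, and 0 of 6 leukocyte, 7 epithelial tumor, 12 mural and mesenchymal and 12 immediate-early genes were called.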

How the data were processed

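Tumor libraries were Smart-Seq2 libraries of 100 sorted cells, for which the authors deposited one count table per library, made with featureCounts (Subread 1.6.2). Sprout libraries were poly-A TruSeq libraries aligned with STAR 2.5.0a, for which the authors deposited counts of uniquely mapped reads (HTSeq 0.6.1p1) and RSEM 1.2.25 tables of expected counts, transcript length and TPM. The submitters' processing notes name mm10. In the sprout libraries 54.1 to 59.1% of the entries counted named no gene (42.6 to 49.6% were not unique) and were left out. Genes were tested on counts with edgeR 4.0.16 (R 4.3.3; filterByExpr at 10 counts, TMM, robust quasi-likelihood test, Benjamini-Hochberg adjustment over all tested genes) in 1 fit per set, and called at an adjusted p below 0.05 and a log2 fold change beyond 1. SE is the log2 fold change over the square root of F. CPM are TMM-scaled. Expected counts were rounded to whole numbers for an alternative. Tumor counts were divided by the mean deposited length. Alternatives used DESeq2 1.42.0, limma 3.58.1 and other scalings, filters and samples. The fits were tested on simulated data. Named genes are the 8 members, Apln, in each list up to 3 called genes per direction and set with the lowest p, and for each member the 2 genes with the highest Pearson r over the 9 tumor libraries. Mmrn1, Lyve1, Reln, Pdpn, Foxc2, Fgfr3 and Col1a1 were also given because of their values, after these were seen. The members and lists were chosen with earlier results of these data known. The 95% intervals of fold changes come from the edgeR fit and include the spread between libraries. Floors (3 counts) cover counting error only.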

Additional observations from a re-analysis of the deposited data

Results flagged for a closer look

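Nr2f2 and Prox1 each had 1 wild-type tumor library far from the other 5. Wild-type library 3 held 168 CPM of Nr2f2, where the next highest wild-type library held 60.3 CPM, and it held 66.7 CPM of Prox1, where the next held 15.1 CPM. The same library had the highest summed lymphatic fate genes of the wild-type group (2952 CPM). Chance alone takes a gap past the critical value in about 1 in 20 groups.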

How the results depend on the processing

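In tumor ECs 0 members were called under all 18 alternatives, but directions moved. With each library left out in turn, log2 fold changes ran from -0.20 to 0.052 for Sox17, -0.90 to 0.56 for Sox18, -0.32 to 1.43 for Nr2f2, -0.015 to 4.07 for Prox1, -0.039 to 1.27 for Klf2, -0.056 to 1.45 for Klf4 and -0.40 to 0.56 for Mef2c, and the value below 0 came without depleted library 2 for Nr2f2, Prox1, Klf2 and Klf4 and without depleted library 3 for Mef2c. Sox17 was above 0 without depleted library 1 (0.025) and without wild-type library 2 (0.052), and Sox18 was at -0.087 without wild-type library 5. Sox18 was also at -0.061 with endothelial marker scaling and -0.041 with limma voom, and Mef2c at -0.11 with endothelial marker scaling. Sox7 stayed between 0.31 and 0.77 in all 17 fits. Apln stayed between -7.15 and -6.28 and was called each time.

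In sprout ECs 3 members were decreased. The count was 0 with endothelial marker scaling, and 1 to 4 with each library left out (3 without STOP library 1, 4 without STOP library 2, 1 without GO library 1 and 2 without GO library 2), while 2 were increased with endothelial marker scaling and 0 otherwise. That scaling shifted all genes together, with 88.2% of them called as increased, so these counts follow from the shift. It gave log2 fold changes of 0.085 for Sox18, 0.83 for Nr2f2, 0.53 for Prox1, 1.52 for Klf4 and 0.17 for Mef2c, and 2.12 for Apln (adjusted p = 5.63e-10, range over the alternatives 5.63e-10 to 0.844). Leaving out each library gave -0.89 to 0.29 for Klf4. DESeq2 called 4 members and rounded RSEM counts 3. Calls over all genes were 441 lower and 124 higher, 628 and 197 with DESeq2, 632 and 222 with no filter on low counts, 136 and 12 (0.914% and 0.0806% of genes tested) without STOP library 1, 548 and 120 (3.61% and 0.790%) without STOP library 2, 135 and 19 (0.914% and 0.129%) without GO library 1, 546 and 341 (3.60% and 2.25%) without GO library 2, and 97 and 19 in place of 1 and 0 for tumor ECs with DESeq2.

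Same-numbered tumor libraries did not deviate together (correlations -0.054, -0.023 and -0.086). A replicate block on libraries 1 to 3 of both groups gave Sox18 at -0.43, and the same libraries without the block, added after seeing the data, gave -0.25. It called 2 genes lower and 0 higher. In sprout ECs same-numbered libraries deviated in opposite directions (-0.43), and the replicate block decreased 0 members, with 41 genes lower and 3 higher. Crossed numbers, added after seeing the data, decreased 6 members, with 933 genes lower and 302 higher.

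The number of libraries limits precision: in tumor ECs the 95% interval reached past a 2-fold change for 7 of 8 members. The causes of these changes were not tested.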
